A study of Rattus norvegicus with 16 samples.

Results

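The genes described here encode the insulin-like growth factor (IGF) system of the rat brain: the ligands Igf1 and Igf2, the receptors Igf1r and Igf2r, and the binding proteins Igfbp2, Igfbp3, Igfbp4, Igfbp5, Igfbp6 and Igfbp7. These 10 genes were chosen by symbol, with earlier results of these data known, out of 16514 symbols in the tables of both regions. Each was taken at the locus with the highest mean. Of the 10, 9 were analysed in hippocampus and 10 in hypothalamus, since Igf2r was not analysed in hippocampus. All of those loci had a mean of at least 1 FPKM (fragments per kilobase of transcript, scaled to the mapped fragments of the library) and entered the tests.

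RNA was sequenced after poly-A selection from 2 brain regions of male Sprague Dawley rats, an outbred laboratory strain. The groups were hippocampus after 6 weeks of fructose (4 libraries), untreated hippocampus (4), hypothalamus after 6 weeks of fructose (3 libraries with values of 4 labelled) and untreated hypothalamus (4). No genotype, age or fructose dose is given in the labels, and nothing in them tells separate rats from repeat samples of a rat, so p-values measure only the spread between these samples. The series is an expression profile of the response to fructose.

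IGF-1 and IGF-2 are small peptides related to insulin. Both bind the IGF-1 receptor, a tyrosine kinase that drives growth and survival signals, while the IGF-2 receptor, which also carries mannose 6-phosphate-tagged enzymes to lysosomes, takes IGF-2 into the cell for breakdown. The binding proteins hold the ligands outside cells, and in the adult rodent brain the leptomeninges (the thin membranes over the brain) and the choroid plexus are known as main sites of Igf2 and Igfbp2 expression. To follow the IGF genes against meningeal content, each library was given a meningeal score, the mean log2(FPKM + 1) of 16 measured genes, out of a list of 17, that mark meningeal fibroblasts. In bulk tissue, fewer cells of a type and less RNA per cell cannot be told apart.

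The bases before the annotated gene start of Igfbp2, Igfbp5 and Igfbp6 are shown because Igfbp2 and Igfbp6 had low values together in the hypothalamus after fructose, while Igfbp5, the direct neighbour of Igfbp2 on rat chromosome 9 with 0 annotated genes between them, had closer values in the groups. Each run is the 250 bases upstream of the start, 5′ to 3′, from RefSeq on the build GRCr8 (the authors used rn5). Capitals mark matches, on either strand, to 4 motifs. The GC box was searched as GGGCGG and the CCAAT box by the letters of its name. The TATA box was searched as TATAAA, and the forkhead core as TGTTTAC.
Igfbp2, chr9:81864561-81864810, plus strand: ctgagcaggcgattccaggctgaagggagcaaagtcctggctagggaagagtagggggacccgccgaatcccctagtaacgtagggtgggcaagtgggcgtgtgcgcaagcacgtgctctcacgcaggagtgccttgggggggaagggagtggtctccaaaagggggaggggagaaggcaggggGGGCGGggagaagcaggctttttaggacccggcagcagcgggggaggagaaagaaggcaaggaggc
Igfbp5, chr9:81914188-81914437, minus strand: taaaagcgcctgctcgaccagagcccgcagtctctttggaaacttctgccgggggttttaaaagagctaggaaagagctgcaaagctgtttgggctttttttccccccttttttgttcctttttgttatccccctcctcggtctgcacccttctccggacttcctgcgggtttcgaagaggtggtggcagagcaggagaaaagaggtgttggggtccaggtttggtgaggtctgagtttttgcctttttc
Igfbp6, chr7:135154669-135154918, plus strand: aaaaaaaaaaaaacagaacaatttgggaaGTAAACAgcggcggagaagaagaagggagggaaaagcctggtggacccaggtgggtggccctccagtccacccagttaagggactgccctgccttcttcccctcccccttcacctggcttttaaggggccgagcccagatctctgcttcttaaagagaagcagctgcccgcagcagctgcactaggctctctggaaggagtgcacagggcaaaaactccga
The Igfbp2 window held 1 GC box, the Igfbp6 window held 1 forkhead core and the Igfbp5 window held none of the 4 motifs. Of 33469 upstream windows of the same length, 30.5% held a GC box, 34% a CCAAT box, 12.9% a TATA box and 3.21% a forkhead core. The windows of Igfbp2, Igfbp5 and Igfbp6 had a GC content of 64%, 51.6% and 54.8%, with a median of 51.2% over all windows. These matches describe the letters and no binding was measured.

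Summed over all loci, hippocampus libraries held 353703 to 402099 FPKM, and hypothalamus libraries held 435105 to 492778 FPKM. No read counts were given, so the depth is unknown. The replicate 1 library of each group stood apart: across tested loci the 2 replicate 1 libraries of a region had r = 0.985 (hippocampus) and 0.980 (hypothalamus) with each other and r = 0.840 to 0.896 and 0.880 to 0.909 with the rest. The regions matched their labels, with a sum over 8 hypothalamic genes (such as Agrp, Pomc and Hcrt) of 2738 to 7298 FPKM in hypothalamus and 2.92 to 28.2 FPKM in hippocampus. The tables were normalised separately, so levels in the 2 regions were set side by side without a test.

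In untreated tissue the system was dominated by Igf2 and a few binding proteins. In control hypothalamus Igf2 averaged 250.8 ± 111.2 FPKM (SD, n = 4), Igfbp7 225.0 ± 42.3 FPKM and Igfbp2 183.7 ± 91.2 FPKM, and the ranges of these neighbours overlapped. Igfbp5 (98.9 ± 31.8 FPKM), Igfbp6 (32.6 ± 7.80 FPKM) and Igf2r (16.0 ± 1.53 FPKM) followed, each of the last 2 below the range of the gene before it. Igfbp3 came next at 9.19 ± 1.98 FPKM, also below the range before it, and Igf1, Igfbp4 and Igf1r lay at 7.72 ± 1.97, 7.64 ± 3.34 and 5.20 ± 0.580 FPKM with overlapping ranges. In control hippocampus Igfbp2 (143.4 ± 108.3 FPKM, n = 4), Igfbp7 (103.3 ± 42.2 FPKM) and Igf2 (69.8 ± 55.2 FPKM) led again and overlapped. Igfbp5 (24.5 ± 7.17 FPKM), Igfbp4 (12.3 ± 5.38 FPKM), Igfbp6 (7.46 ± 6.38 FPKM), Igf1r (6.65 ± 1.10 FPKM) and Igfbp3 (5.57 ± 2.06 FPKM) each overlapped the gene before, and Igf1, at 2.26 ± 0.652 FPKM, lay below the range of Igfbp3.

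**Figure D1:**
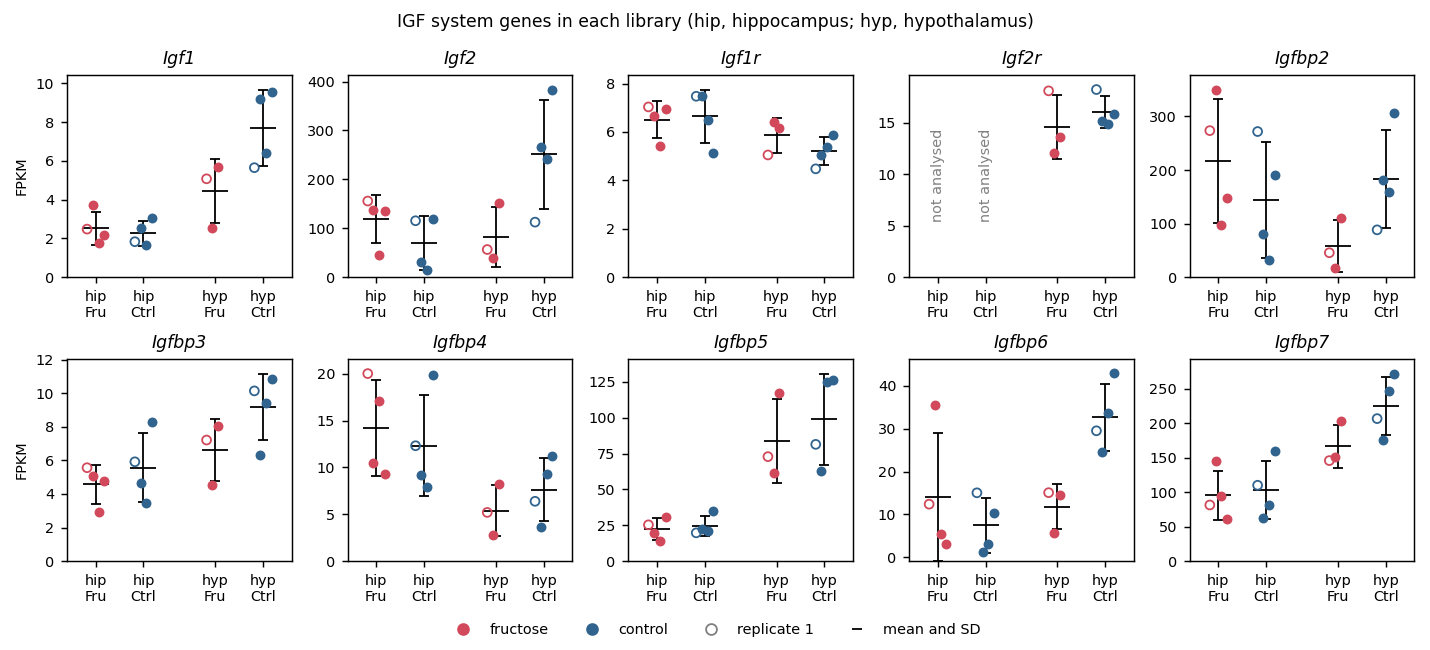
FPKM of each IGF system gene (y axis, linear, own scale per gene) in every library of fructose and control hippocampus and hypothalamus, with replicate 1 libraries as open circles and the mean and SD as bars. In hypothalamus the 3 fructose values of Igfbp6 lie between 5.75 and 15.1 FPKM, all below the control values, while Igf1r values lie between 4.48 and 6.40 FPKM in that region.

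Hypothalamus was compared as 3 fructose against 4 control libraries. The ligand Igf2, a growth factor of fetal tissues that the meninges keep making in adults, was at 56.5, 38.4 and 151.3 FPKM in fructose replicates 1 to 3, against 112.5, 266.3, 241.0 and 383.6 FPKM in control replicates 1 to 4. Fructose replicate 3 lay above control replicate 1, so the groups overlapped by that pair. The mean after fructose was 32.7% of the control mean, and the log2 fold change was -1.72 ± 0.54 (SE, limma, unadjusted p = 0.0143, adjusted p = 0.9998).

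Igfbp2, an IGF carrier abundant in cerebrospinal fluid, had 45.6, 17.8 and 111.1 FPKM in fructose libraries, against 88.3, 181.0, 158.6 and 306.9 FPKM in control libraries. The order of the libraries was as for Igf2, with the same pair overlapping. Its mean after fructose was 31.7% of the control mean, a log2 fold change of -1.87 ± 0.63 (limma, unadjusted p = 0.0188, adjusted p = 0.9998).

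Igfbp6, which binds IGF-2 in preference to IGF-1, had 15.1, 5.75 and 14.5 FPKM in fructose libraries, against 29.5, 24.5, 33.6 and 42.9 FPKM in control libraries. Here every fructose library lay below every control library. The mean was 36.1% of control and the log2 fold change was -1.47 ± 0.34 (limma, unadjusted p = 0.00272, adjusted p = 0.9998), rank 12 by p among 11498 loci. Of all loci tested, 1.58% had groups that did not overlap with fructose lower, against 1 of the 10 IGF genes.

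Igf1, the ligand made by neurons, glia and meningeal cells, had 5.08, 2.54 and 5.67 FPKM in fructose libraries, against 5.65, 9.22, 6.42 and 9.57 FPKM in control libraries. Fructose replicate 3 and control replicate 1 were nearly level and all other fructose values were below all control values. The log2 fold change was -0.71 ± 0.27 (limma, unadjusted p = 0.0338, adjusted p = 0.9998).

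The other binding proteins of the hypothalamus differed less and overlapped. Igfbp7, a protein of vessel walls that binds IGFs weakly, averaged 166.6 ± 31.3 FPKM after fructose and 225.0 ± 42.3 FPKM in controls (log2 fold change -0.43 ± 0.19). Igfbp3, the main carrier in blood, averaged 6.60 ± 1.85 FPKM after fructose and 9.19 ± 1.98 FPKM in controls (-0.43 ± 0.23). Igfbp4, which restrains IGF action until it is cleaved, averaged 5.39 ± 2.73 FPKM after fructose and 7.64 ± 3.34 FPKM in controls (-0.44 ± 0.41). Igfbp5, the neighbour of Igfbp2, averaged 83.8 ± 29.3 FPKM after fructose and 98.9 ± 31.8 FPKM in controls (-0.23 ± 0.31), with a second locus that makes the value uncertain.

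The receptors had the smallest log2 fold changes of the 10. Igf1r was at 5.05, 6.40 and 6.16 FPKM in fructose libraries, against 4.48, 5.06, 5.39 and 5.86 FPKM in control libraries (log2 fold change 0.15 ± 0.14). Igf2r was at 18.1, 12.1 and 13.6 FPKM in fructose libraries, against 18.2, 15.1, 14.9 and 15.9 FPKM in control libraries (-0.14 ± 0.16). In both receptors the groups overlapped.

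In all, the log2 fold change was below 0 for 9 of the 10 genes in hypothalamus (median -0.43), beside 48.5% of all loci tested (median 0.01). None of the 10 passed an adjusted p of 0.05 with limma, where 0.0087% of loci passed (1 of 11498). An unadjusted p under 0.05 was found for 4 of the 10, all lower, against 3.14% of all loci in either direction, 2.12% lower and 1.02% higher. As the genes were chosen with earlier results of these data known, these counts describe the list and do not test it. In a fit blocked on replicate number, 2 loci passed and no IGF gene did, and Igfbp6 then had a log2 fold change of -1.33 ± 0.20 (limma adjusted p = 0.217). Without both replicate 1 libraries the log2 fold changes were -1.91 for Igf2, -2.18 for Igfbp2, -1.72 for Igfbp6 and -0.93 for Igf1, and the lowest limma adjusted p of the 4 was 0.46. Fructose replicate 2 had the lowest value of all 4 genes, and without it they were -1.30, -1.22, -1.06 and -0.43.

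Meningeal marker levels ran alongside these values. All 14 tested markers of 17 had log2 fold changes below 0 in hypothalamus (median -1.32), and none passed the adjusted test with limma. At an unadjusted p under 0.05 (limma), 11 of the 14 were lower, against 2.12% of all loci. For 5 of the 14 every fructose library lay below every control library, against 1.58% of all loci. The summed level of the 16 measured markers was 56.9 to 277.4 FPKM in fructose libraries and 266.3 to 506.3 FPKM in control libraries, and Ogn and Col1a2 were at 0 in some library. The sum over 10 mural cell markers was 258.9 to 461.3 FPKM after fructose and 377.8 to 747.5 FPKM in controls. The mural markers did not all go 1 way: 7 had log2 fold changes below 0 (median -0.59), beside 48.5% of all loci, and 3 above. The sum over 10 measured endothelial markers was 105.7 to 139.6 FPKM after fructose and 130.9 to 151.3 FPKM in controls. Choroid plexus markers summed to 39.3 to 48.3 FPKM after fructose and 43.1 to 120.3 FPKM in controls. Ependymal markers went the other way: the 5 measured of 8 summed to 68.0 to 80.1 FPKM after fructose and 43.4 to 63.0 FPKM in controls, without overlap, and 3 of the 5 were higher at an unadjusted p under 0.05. The part of mural, endothelial and ependymal cells in the IGF values was not tested.

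Hippocampus was compared as 4 fructose against 4 control libraries, and there Igf2, Igfbp2 and Igfbp6 had log2 fold changes above 0 with wide, overlapping groups. Igf2 had 155.6, 138.0, 45.4 and 135.3 FPKM in fructose replicates 1 to 4, against 115.3, 31.0, 13.8 and 119.1 FPKM in control replicates 1 to 4. Fructose replicate 3 was the low one of its group, and control replicates 2 and 3 lay far under the other controls. The log2 fold change was 1.09 ± 0.72 (limma, unadjusted p = 0.167, adjusted p = 0.9999), and a second locus with this symbol makes the value uncertain.

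Igfbp2 in hippocampus had 273.5, 350.2, 96.6 and 148.1 FPKM in fructose libraries, against 271.8, 80.2, 31.6 and 190.0 FPKM in control libraries. Control replicates 2 and 3 were again the lowest, and the log2 fold change was 0.84 ± 0.69 (limma adjusted p = 0.9999). Igfbp6 had 12.4, 35.6, 5.30 and 3.09 FPKM in fructose libraries, against 15.0, 1.30, 3.14 and 10.4 FPKM in control libraries. The high value of fructose replicate 2 carried the Igfbp6 estimate of 0.72 ± 0.81 (limma adjusted p = 0.9999), which was 0.12 without that library.

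Igf1 in hippocampus had 2.48, 3.73, 1.75 and 2.16 FPKM in fructose libraries, against 1.83, 2.52, 1.64 and 3.06 FPKM in control libraries, and the log2 fold change was 0.10 ± 0.21. Igf1r averaged 6.52 ± 0.754 FPKM after fructose and 6.65 ± 1.10 FPKM in controls (-0.02 ± 0.14). The log2 fold changes of Igfbp3, Igfbp4, Igfbp5 and Igfbp7 were -0.21, 0.21, -0.14 and -0.10, with SE of 0.25 to 0.34, and Igfbp4 also had a second locus. Every IGF gene overlapped between the hippocampus groups, where only 0.255% of all loci did not overlap with fructose higher and 0.413% with fructose lower.

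The log2 fold change was above 0 for 5 of the 9 genes in hippocampus (median 0.10), beside 48.6% of all loci. No IGF gene and no locus passed an adjusted p of 0.05 with limma (0%), and 0 of the 9 had an unadjusted p under 0.05, as did 0.808% of 11385 loci. Without control replicate 3, the log2 fold changes of Igf2 and Igfbp2 were 0.50 and 0.26. Without both replicate 1 libraries they were 1.31 and 1.11.

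Meningeal marker levels in hippocampus ran alongside those of Igf2, Igfbp2 and Igfbp6, but not of all IGF genes, of which 4 had changes below 0. All 14 markers tested had log2 fold changes above 0 (median 0.92), beside 48.6% of all loci, and none passed with limma. At an unadjusted p under 0.05 (limma), 1 of the 14 was higher, against 0.334% of all loci. The summed level of the 16 measured markers was 205.6 to 772.1 FPKM in fructose libraries and 53.4 to 511.4 FPKM in control libraries. The 9 measured of 10 choroid plexus markers summed to 1507 to 5876 FPKM after fructose and 1198 to 7617 FPKM in controls, and the 9 measured mural markers to 368.5 to 1185 FPKM after fructose and 157.8 to 1710 FPKM in controls. The part of choroid plexus and mural cells in the IGF values was not tested beyond the choroid plexus score.

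The difference between the regions in the fructose change was tested as an interaction over 9931 symbols, taking the hypothalamus change minus the hippocampus change. It was -2.81 ± 0.96 for Igf2 (limma, unadjusted p = 0.0105, adjusted p = 0.9999), -2.70 ± 0.97 for Igfbp2, -2.19 ± 0.95 for Igfbp6 and -0.81 ± 0.34 for Igf1. These 4 of the 9 genes, all lower, had an unadjusted p under 0.05, as did 2.31% of all symbols, and 0 symbols passed the adjusted test with limma (0%). The estimate was below 0 for 8 of the 9, as for 45.4% of symbols. The other 5 IGF genes had differences between -0.65 (Igfbp4) and 0.17 (Igf1r). Igf2 was rank 28 and Igfbp2 rank 46 by p. Of the 14 meningeal markers tested, 13 had an unadjusted p under 0.05 (limma), all lower.

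The IGF genes were then followed against the meningeal score within treatment groups, as the slope of log2(FPKM + 1) per unit of score with the group as a term. In hippocampus the score was 2.67 to 4.19 in fructose libraries and 1.52 to 3.63 in control libraries, and in hypothalamus it was 1.64 to 3.43 in fructose and 3.40 to 4.18 in control libraries. The slope in hippocampus was 1.32 ± 0.28 for Igfbp6, 1.15 ± 0.27 for Igf2, 1.12 ± 0.24 for Igfbp2, 0.53 ± 0.13 for Igfbp7 and 0.38 ± 0.10 for Igfbp3. The lowest limma adjusted p of these was 0.115, at Igfbp6, and the unadjusted p were 0.00219 to 0.00757. Igf2 in hippocampus and Igfbp5 in hypothalamus each have a second locus that is left out here, so their slopes are uncertain. In hypothalamus the slope was 1.30 ± 0.37 for Igfbp2, 0.94 ± 0.40 for Igf2, 0.90 ± 0.21 for Igfbp4, 0.76 ± 0.16 for Igfbp6, 0.62 ± 0.20 for Igfbp5 and 0.49 ± 0.14 for Igfbp3, with a lowest limma adjusted p of 0.634. Blocked on replicate number, the hypothalamus slope was 0.10 ± 0.25 for Igfbp4, 0.16 ± 0.25 for Igfbp3 and -0.06 ± 0.23 for Igfbp5. It was 2.30 ± 0.35 for Igfbp2 and 1.74 ± 0.31 for Igf2. The blocked fit has nearly as many terms as libraries, so little is left to estimate these SE from. Over all alternatives the Igfbp4 slope ran between 0.10 and 2.81, but some of these used a choroid plexus or meningeal transporter score, with other units.

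**Figure D2:**
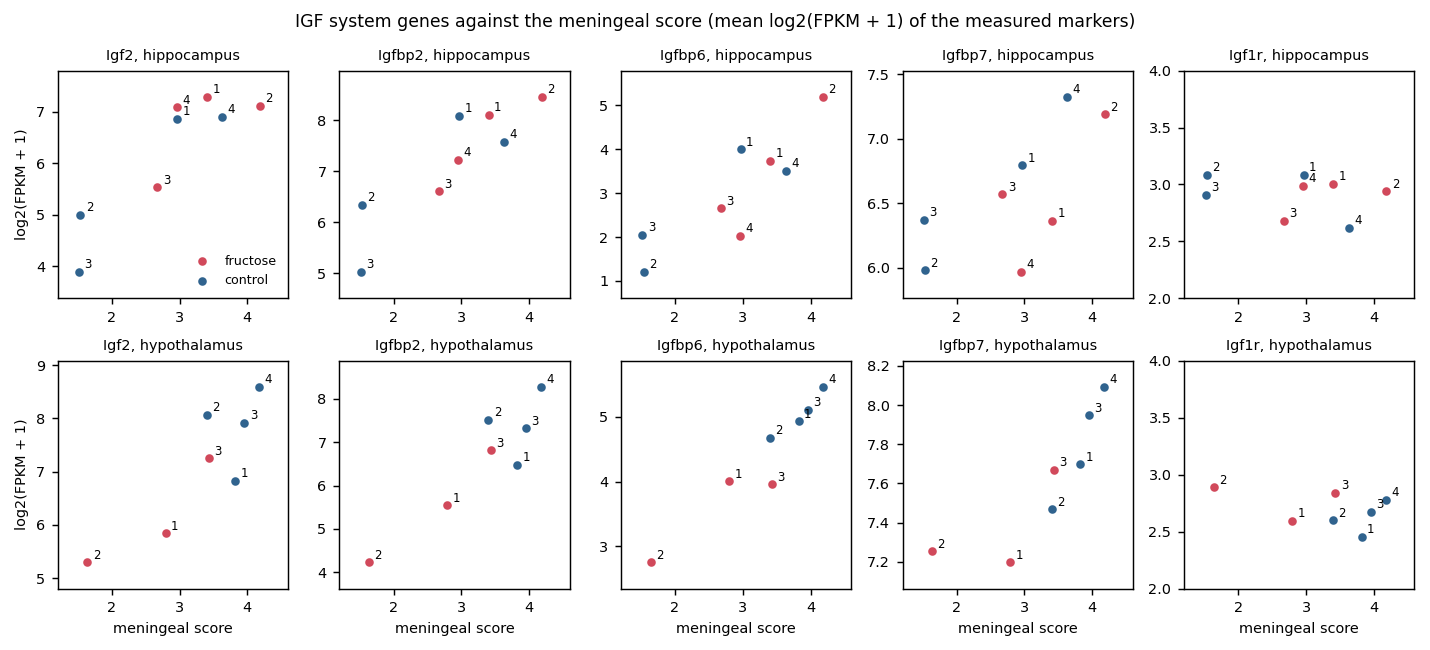
log2(FPKM + 1) of 5 IGF system genes (y axis, own scale per panel) against the meningeal score of the same library (x axis), with hippocampus above and hypothalamus below and replicate numbers beside the points. Igf2, Igfbp2 and Igfbp6 are lowest in hypothalamus in fructose replicate 2, which has the lowest score (1.64), and Igf2 and Igfbp2 are lowest in hippocampus in control replicates 2 and 3, with the lowest scores there (1.53 and 1.52).

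The slope was above 0 for 8 of the 9 IGF genes in hippocampus and 9 of the 10 in hypothalamus, as for 38.3% and 48.7% of loci. None of the 9 passed in hippocampus, where 1.11% of 11371 loci did (126, of which 1 or 0.00879% with a slope below 0). An unadjusted p under 0.05 with a positive slope was found for 5 of the 9, against 5.72% of loci (11.2% in either direction, 5.49% lower). None of the 10 passed in hypothalamus, where 0% of 11484 loci did with limma, and 5 of the 10 had an unadjusted p under 0.05 with a positive slope, against 2.64% of loci (3.17% in either direction, 0.531% lower). Blocked on replicate number, 2 IGF genes passed in hippocampus: Igfbp6 (slope 1.65, limma adjusted p = 0.0183) and Igfbp7 (0.77, limma adjusted p = 0.0155). That fit has nearly as many terms as libraries, so little is left to estimate the error from and these calls are uncertain. Without the group term Igf2 (1.17, limma adjusted p = 0.0388) and Igfbp2 (1.07, 0.0365) passed in hippocampus and Igfbp6 (1.01, 0.0348) in hypothalamus; these slopes also hold the difference between treatment groups. The slope of Igf1r was -0.05 ± 0.09 in hippocampus and -0.01 ± 0.14 in hypothalamus, and that of Igf2r 0.12 ± 0.16 in hypothalamus.

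**Figure D3:**
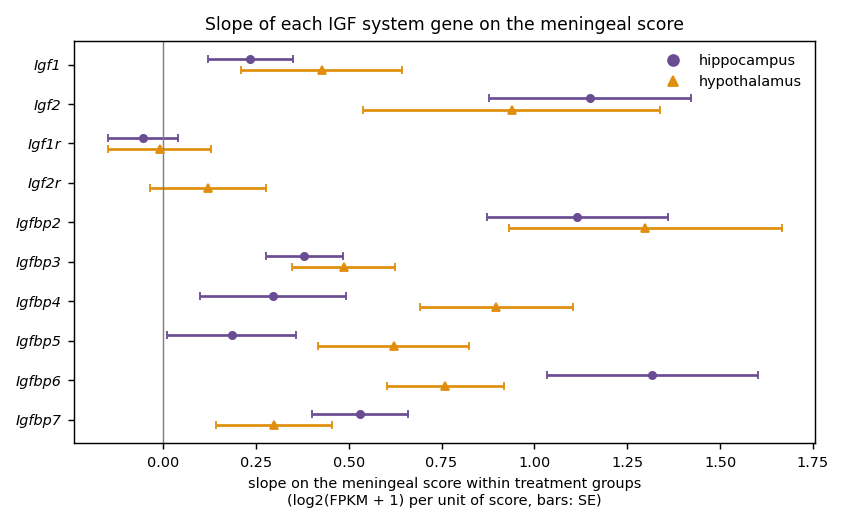
Slope of each IGF system gene on the meningeal score within treatment groups (x axis, log2(FPKM + 1) per unit of score, bars are SE) in hippocampus and hypothalamus. Igf2, Igfbp2 and Igfbp6 have slopes of 0.76 to 1.32 in both regions, and those of the receptors lie between -0.05 and 0.12.

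With the meningeal score as a further term, the fructose change of Igf2, Igfbp2 and Igfbp6 was nearer to 0 in both regions. That of Igfbp4 and Igfbp5 in hypothalamus and of Igfbp3, Igfbp5 and Igfbp7 in hippocampus was further from 0. In hippocampus Igfbp7 had -0.57 with the score, against -0.10 without it. The hypothalamus score was 1.64 to 3.43 in fructose and 3.40 to 4.18 in control libraries, so score and group can hardly be told apart there. In hypothalamus the log2 fold change was then -0.57 ± 0.65 for Igf2, -0.28 ± 0.60 for Igfbp2, -0.54 ± 0.26 for Igfbp6 and -0.18 ± 0.35 for Igf1. In hippocampus it was 0.07 ± 0.48 for Igf2, -0.16 ± 0.43 for Igfbp2 and -0.46 ± 0.50 for Igfbp6. For some genes the sign differed from that of the fit without the score: Igfbp4 and Igfbp5 had 0.66 ± 0.34 and 0.53 ± 0.33 in hypothalamus. No IGF gene passed in these fits (lowest unadjusted p = 0.0193, Igfbp3 in hippocampus at -0.55 ± 0.18). With the choroid plexus score as the term instead, the changes were -1.52 for Igf2, -1.63 for Igfbp2 and -1.33 for Igfbp6 in hypothalamus. That score ran only from 1.57 to 2.08 in hypothalamus, against 3.09 to 5.39 in hippocampus. The hippocampus fit with it is not given here, so no comparison of the meningeal and choroid plexus terms is drawn.

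**Figure D4:**
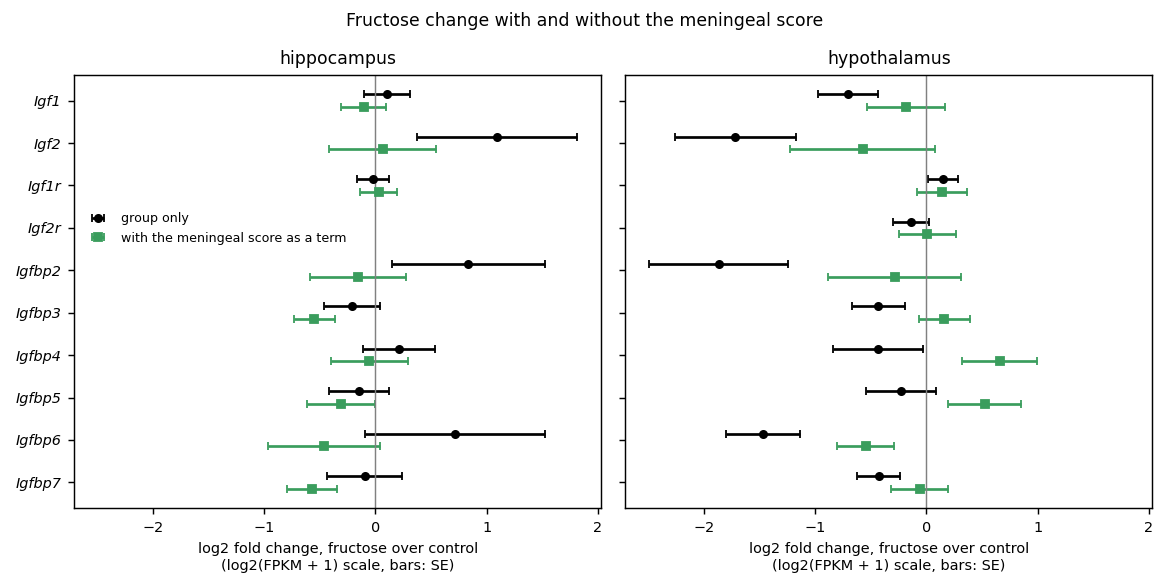
log2 fold change of each IGF system gene, fructose over control (x axis, bars are SE), from the fit with the group only (black circles) and with the meningeal score as a further term (green squares), in hippocampus and hypothalamus. The hypothalamus estimate of Igf2 is -1.72 in the first and -0.57 in the second, while those of Igfbp4 and Igfbp5 change sign, to 0.66 and 0.53. Score and group can hardly be told apart in hypothalamus.

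The genes whose levels were most like those of Igf1, Igf2, Igfbp2 and Igfbp6 were listed, among 9931 symbols. The order is by the smaller of the 2 Pearson r, over 8 hippocampus and over 7 hypothalamus libraries. Igf2, Igfbp2 and Igfbp6 were picked with earlier results of these data known. Both genes of a pair come from the same libraries, whose depth and meningeal marker levels vary, and these r are a description with no test. Igfbp6 was most like Wnt5b (0.966), Fcgrt (0.953) and the meningeal marker Wnt6 (0.949), then Prrx2 and Mrgprf. Igfbp2 was most like Pcolce (0.936), Bmp7 (0.915) and the meningeal marker Foxc2 (0.912), then Cd68 and Pdlim2. Igf2 was most like Lrrc32 (0.923), Pdlim2 (0.914) and Fmod (0.913), then Cpz and Dab2. Igf1 was most like Kank4 (0.869), Cpq (0.863) and Megf6 (0.835), then LOC100910996 and Nid2. Between members, Igf2 and Igfbp2 had r = 0.944 over 8 hippocampus and 0.984 over 7 hypothalamus libraries. The second hippocampus locus of Igf2 was left out of every r of Igf2, which makes the hippocampus values uncertain.

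Of 51 other genes of the pathway, 36 were tested in hypothalamus and 37 in hippocampus. None passed in either region with limma. In hypothalamus 1 of the 36 was higher and 3 were lower at an unadjusted p under 0.05, where 1.02% of all loci were higher and 2.12% lower. The list's median was 0.06, against 0.01 over all loci. The 3 lower ones belong to the CCN family, secreted proteins with an IGF-binding-like domain. Wisp2 was at 2.66 ± 0.860 FPKM after fructose and 4.93 ± 0.845 FPKM in controls (log2 fold change -0.71 ± 0.19). Ctgf was at 6.56 ± 2.01 FPKM after fructose and 14.1 ± 4.40 FPKM in controls (-0.98 ± 0.29), and Nov at 11.8 ± 6.15 FPKM after fructose and 26.4 ± 13.0 FPKM in controls (-1.14 ± 0.47). Foxo1, the transcription factor that insulin and IGF signals keep out of the nucleus, was the higher one, at 10.7 ± 2.61 FPKM after fructose and 6.97 ± 1.04 FPKM in controls (0.54 ± 0.19). The groups did not overlap for Foxo1 and Sos1 with fructose higher, and for Wisp2 with fructose lower, beside 1.75% of all loci higher and 1.58% lower. Sos1, an exchange factor for Ras that was named for this after its values were seen, had a log2 fold change of 0.25 ± 0.12.

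In hippocampus 0 of the 37 had an unadjusted p under 0.05, and the list's median was -0.001. The 4 with the smallest p were Igfbpl1, Nov, Plagl1 and Grb2, with log2 fold changes of -0.52, -0.29, -0.28 and -0.15. Against the meningeal score, Ctgf (slope 1.03 ± 0.12, limma adjusted p = 0.0140) and Wisp2 (1.41 ± 0.23, limma adjusted p = 0.0394) passed in hippocampus. Neither passed without control replicate 2, 3 or 4, where 0 loci did with limma. Insr, the insulin receptor, was at 4.94 ± 0.668 FPKM after fructose and 4.67 ± 0.678 FPKM in controls in hypothalamus, and at 6.62 ± 0.401 FPKM after fructose and 6.40 ± 1.47 FPKM in controls in hippocampus. Ins2, an insulin gene near Igf2, was listed at 0 in all hypothalamus libraries but control replicate 1 (0.335 FPKM), and H19 was not analysed here.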

How the data were processed

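Poly-A RNA was sequenced on a HiSeq 2000, with CASAVA 1.8.2 for demultiplexing, per the labels' protocols. The authors deposited FPKM values for each region. The build rn5, Cufflinks, Cuffdiff, TopHat, TopHat2, Bowtie and Bowtie2 appear, with no version, per the submitters' processing notes. No counts were given. Low FPKM values stepped in replicates 2 to 4 (19.4% to 33% of ratios shared 1 bin), where relative depths were 0.94 to 1.46 with control replicate 2 as 1. In replicate 1 they did not (2.01% to 2.87%), so the depth is unknown and no count test was run. Columns were matched to samples by region, group and replicate number. The table of hypothalamus has 7 libraries.

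The values tested were log2(FPKM + 1) of loci whose mean was 1 FPKM or more (11385 in hippocampus, 11498 in hypothalamus). The tool was limma 3.58.1, run under R 4.3.3 (moderated test, variance trend, group as the only term), with Benjamini-Hochberg adjustment over all loci at 0.05. Fold changes on this scale understate those of low genes. The interaction joined tables by symbol at the highest-mean locus. Slopes on the meningeal score left the score's own markers out. Scripts were tested on simulated data. The members and lists were chosen with earlier results of these data known; genes named are all members, the 4 pathway genes with the smallest p per region and any that passed, the 5 most alike symbols, and Insr, Ins2 and H19.

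The replicate numbers come from the labels. Deviations from group means of same-numbered libraries had r of 0.892, 0.208, 0.481 and 0.41 in hippocampus and 0.848, 0.488 and 0.456 in hypothalamus, all over 0.1. Without replicate 1 the r were -0.226, 0.404 and 0.0882, and 0.269 and 0.0364, some of them under 0.1. Whether the numbers pair the samples is therefore not settled. The main tests leave a pairing out, so the gap between replicate 1 and the other libraries counts as spread within groups. This can raise their p-values and hide changes. The fit blocked on replicate number is given as an alternative. Alternatives covered pseudocount, filter, locus, scaling, variance trend, weights, block, covariates and left-out libraries.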

Additional observations from a re-analysis of the deposited data

Results flagged for a closer look

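Among 28 groups of 4 libraries (1 for each member and group), 1 held a library far from the other 3, where chance flags about 1 in 20 groups. Igfbp5 in control hippocampus was at 35.2 FPKM in replicate 4, against 19.7 to 22.2 FPKM in replicates 1 to 3, and this gap was 0.84 of the whole range of the group. The 3 fructose libraries of hypothalamus were too few for this check.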

How the results depend on the processing

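No IGF gene passed an adjusted p of 0.05 in either fructose contrast or in the difference between regions, in 571 values over 29 settings (lowest limma adjusted p 0.108). Unknown depth and 3 or 4 libraries a group limit these tests, and the cause of the changes listed here was not tested unless fewer libraries were fitted.

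Loci called. In hypothalamus fructose against control, 1 locus passed; 2 did with the replicate block and 2 without both replicate 1 libraries, and 0 did at a mean FPKM of at least 5, with the meningeal score as a term or in 1 model over both regions. Leaving out single libraries gave 0 to 2 there, and 0 to 1 in hippocampus and in the difference between regions (0 each with all libraries). For the slope, 126 loci passed in hippocampus, against 6 with the choroid plexus score, 190 without the group term and 0 to 113 without single libraries: 0 without control replicate 2, 3 or 4, 22 without fructose replicate 2 and 51 without fructose replicate 3. In hypothalamus 0 passed for the slope, against 52 without the group term and 6 without both replicate 1 libraries.

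Signs that turned. In hippocampus the fructose change of Igfbp7 was 0.357 with array weights and 0.016 without both replicate 1 libraries. With the meningeal score as a term it was -0.105 for Igf1, 0.029 for Igf1r, -0.159 for Igfbp2, -0.054 for Igfbp4 and -0.461 for Igfbp6 in hippocampus, and 0.008 for Igf2r, 0.162 for Igfbp3, 0.658 for Igfbp4 and 0.525 for Igfbp5 in hypothalamus. With the choroid plexus score, slopes in hippocampus were 0.081 for Igf1r, -0.023 for Igfbp6 and -0.146 for Igfbp7, and in hypothalamus 0.483 for Igf1r and -0.046 for Igf2r. With the replicate block, the slope of Igfbp5 was -0.059 in both regions and that of Igfbp7 -0.077 in hypothalamus, and the difference between regions of Igfbp5 was 0.05. Without replicate 1 libraries, the hypothalamus slope of Igf1r was 0.013 and the difference of Igfbp5 was 0.078.

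Leaving out single libraries, the hippocampus change ranged over -0.045 to 0.217 for Igf1, -0.121 to 0.055 for Igf1r, -0.314 to 0.054 for Igfbp5 and -0.318 to 0.141 for Igfbp7. Slopes ranged over -0.107 to 0.089 for Igf1r and -0.005 to 0.282 for Igfbp5 in hippocampus, and -0.097 to 0.284 for Igf1r and -0.205 to 0.333 for Igf2r in hypothalamus. The difference of Igfbp5 ranged over -0.351 to 0.107. In hypothalamus the replicate block drops control replicate 4, the only library of its number, from the estimate. Beside the slopes of Igfbp6 and Igfbp7 in hippocampus, the block changed no call of an IGF gene. No value was had for Igf1 in hippocampus at a mean FPKM of at least 5, or for Igf2, Igfbp4 and Igfbp5 with single-locus symbols.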

Other observations

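Igf2 was also set against Igfbp2 within each library. The ratio of their FPKM was 1.24, 2.16 and 1.36 in fructose hypothalamus and 1.27, 1.47, 1.52 and 1.25 in control hypothalamus. In hippocampus it was 0.569, 0.394, 0.47 and 0.913 in fructose libraries and 0.424, 0.387, 0.438 and 0.627 in control libraries. With both hippocampus loci of Igf2 summed, a choice made after seeing the data, it was 0.569, 0.622, 0.665 and 1.12 in fructose and 0.424, 0.524, 0.676 and 0.974 in control hippocampus. No difference between the regions was tested. Igfbp2 made up 15.6%, 7.29% and 24.1% of the FPKM summed over the 6 binding proteins in fructose hypothalamus, against 20.9%, 39.8%, 27.3% and 39.9% in control hypothalamus.

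Some members had a second locus with the same symbol, not used above: Igf2 and Igfbp4 in hippocampus and Igfbp5 in hypothalamus. These 3 second loci were at 0 to 0.196 FPKM in the replicate 1 libraries of both groups and at 4.34 to 79.9 FPKM in all other libraries. With the loci of a symbol summed, the log2 fold changes of Igf2 and Igfbp4 in hippocampus and of Igfbp5 in hypothalamus were 1.04, 0.26 and -0.28.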
